A study of Mus musculus with 577 samples.

Results

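Single granulosa cells were cut from frozen mouse ovary sections and amplified as cDNA by SMART-Seq v4 (the 3′DE kit), either with or without DRaqL. The cells were found by their labels, which name the kit and the lysis for each library, and there were 73 of them among the 577 samples of the series: 39 with DRaqL and 34 without. The study asks how well the transcriptome of single cells can be read from histological sections. All of these cells came from ovaries of 8-week-old female mice, which were snap-frozen, embedded in 10% polyvinyl alcohol, sectioned at 15 µm, fixed and stained with cresyl violet in isopropanol, and cut by laser capture microdissection (LCM). No strain, genotype or agent given to the mice is stated, and the methods being compared used sections from a shared ovary. In both groups the labels class cells as neighboring to the oocyte (20 with and 17 without DRaqL) or non-neighboring (19 and 17).

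DRaqL stands for direct RNA recovery and quenching for LCM. With DRaqL, cells were lysed in sodium deoxycholate, a detergent that denatures proteins, which was then quenched with Triton X-100 and BSA. Without DRaqL, cells were lysed in the buffer of the kit. The protocols differed in more than the detergent, because the DRaqL version also held dithiothreitol at lysis, warmed the primer in a separate step, and added SuperScript II and SuperScript III to the reverse transcriptase of the kit. The effects of these changes cannot be told apart. The cDNAs were sequenced in 4 pools per group, with 10, 10, 10 and 9 cells with DRaqL and 9, 6, 9 and 10 cells without, and every pool held 1 of the groups, so that pool and lysis cannot be told apart either. The pool labels span 10 cells each, so more cells are missing without DRaqL than with it, and the labels do not say why. All values are those of the cells that were kept. Because no label ties a cell to a mouse and 1 ovary was used, each group counts as 1 sample. The comparison therefore rests on values, on the spread over cells and on the 4 pool means of each group, without a test, and SDs over cells describe cells and not animals.

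Granulosa cells surround the growing oocyte, nourish it through gap junctions, divide as the follicle grows, and make estradiol, inhibins and follistatin in answer to follicle-stimulating hormone. The kit starts cDNA from an oligo(dT) primer, which pairs with the poly(A) tail of an mRNA, and the libraries hold the 3′ ends. Several abundant RNAs do not have a standard tail. Histone mRNAs made for DNA replication end in a stem-loop, the ribosomal RNAs of mitochondria carry only short A tails, and Malat1, a long noncoding RNA kept in the nucleus, ends in a triple helix after processing. Mitochondrial mRNAs are tailed after they are cut from a common precursor.

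The stem-loops of histone mRNAs are shown because the replication-dependent histones were among the classes with the widest difference between the lyses. The capitals mark the match to the letters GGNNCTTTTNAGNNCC, read on the transcript strand in the last 100 bases of transcripts of GENCODE vM21 on GRCm38, and the lower case marks the 6 bases on either side.
Hist1h2ag: aacaaaGGCTCTTTTCAGAGCCacctaa
Hist1h2ab: aacaaaGGCTCTTTTCAGAGCCacccac
Hist1h2ao: aaaaaaGGCTCTTTTCAGAGCCatccac
The match ends 23 bases before the annotated end of Hist1h2ag, at chr13:22042460-22042944 on the minus strand. These letters were found in 21 of 63 replication-dependent histone genes with a transcript (33.3%) and in 22 of all 21667 protein-coding genes (0.102%), of which 1 was outside the list. Many histone transcripts are annotated without the sequence after the stop codon, so that a missing match says only that the letters are not in the window.

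Depth was alike at the median and uneven in the tails. Reads on protein-coding genes ran from 198750 to 1462136 per cell with DRaqL (median 533447) and from 155613 to 6749468 without (median 453680). The cell with 6749468 reads, a non-neighboring cell without DRaqL, stood apart, and the next deepest of its group had 1080057. Levels below are reads per 1000000 reads of the library on protein-coding genes (RPM), as log2 (RPM+1), and a gene is called detectable above 0 reads.

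The cells were checked against 2 markers. Inha, which encodes the alpha subunit of inhibin and is a marker of granulosa cells, was detectable in all 73 cells, at 11.46 ± 0.74 with DRaqL (SD, n = 39 cells) and 10.66 ± 1.09 without (n = 34). Foxl2, a transcription factor that maintains granulosa cell fate, was detectable in 92.3% of cells with DRaqL (Clopper-Pearson 95% interval 79.1 to 98.4) and in 91.2% without (76.3 to 98.1), so that the label fits both markers in both groups. The summed level of 14 oocyte genes reached 10% of the level in oocytes (25099 RPM over 33 oocytes of the same kit) in 2 cells with DRaqL, both neighboring, and in 6 cells without, of which 4 were neighboring. These 8 cells are called mixed below.

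With DRaqL, more genes were detectable. A cell gave 8253 ± 1516 protein-coding genes with DRaqL (SD, n = 39 cells, lowest 4255, median 8268, highest 11177) and 5909 ± 1630 without (n = 34, lowest 3702, median 5615, highest 12819). The pool means were 7935 to 8625 with DRaqL and 5211 to 6511 without, and did not overlap. Of the 39 cells with DRaqL, 38 lay above the median of the cells without, while 1 of the 34 cells without lay above the median of the cells with DRaqL, and that was the deepest cell.

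The difference remained at equal depth. When every cell was thinned to 155613 reads on protein-coding genes, which left out no cell, 6822 ± 991 genes were detectable with DRaqL and 4781 ± 1022 without, and the pool means were 6366 to 7275 and 4675 to 4939. Among neighboring cells the unthinned counts were 8007 ± 1342 (n = 20) and 5693 ± 1102 (n = 17), and among non-neighboring cells 8513 ± 1676 (n = 19) and 6125 ± 2041 (n = 17). Without the 8 mixed cells, the difference between the means was 2257 genes against 2345 with them.

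**Figure D1:**
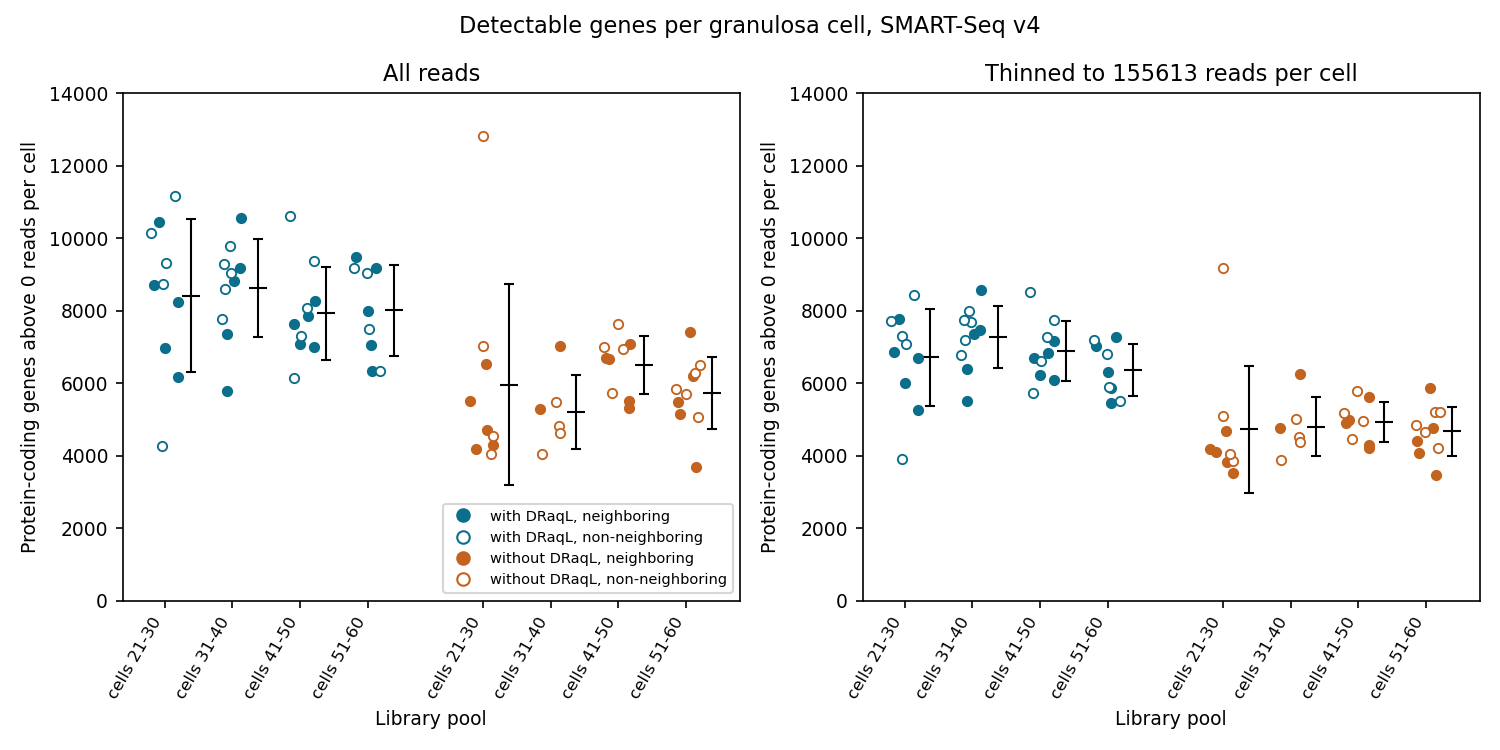
Detectable protein-coding genes per cell (vertical axis, number of genes) in the 39 cells with DRaqL and the 34 cells without, by library pool (horizontal axis), for all reads and after thinning to 155613 reads. Points are cells, filled where neighboring and open where non-neighboring, dashes with bars are pool means and SDs over cells, and in both panels the pool means with DRaqL lie above those without.

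ERCC RNAs, synthetic RNAs added as a reference, took 19.0% ± 7.8 of ERCC plus gene reads with DRaqL and 34.7% ± 13.4 without, with pool means of 15.4% to 22.6% and 28.1% to 39.4%. A cell gave a median of 4.46 gene reads per ERCC read with DRaqL and 2.15 without. In the deepest cell without DRaqL the ERCC share was 4.61%. The added amount is given for the DRaqL buffer and not for the kit buffer, so that these values do not give the RNA recovered per cell. Similar numbers of ERCC RNAs were detectable, 39.8 ± 2.57 and 41.1 ± 3.20 of 92.

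Most protein-coding genes had a higher mean level with DRaqL. Of 3871 protein-coding genes with a mean of at least 4 in either group, 2354 (60.8%) were at least 2-fold higher and 86 (2.22%) at least 2-fold lower on the scale of mean log2 (RPM+1), and the median difference was 1.31 (quartiles 0.55 and 2.12). With a pseudocount of 10 in place of 1 the higher genes were 1274, and without 1 pool of 10 cells without DRaqL the lower genes were 148. All 4 pool means with DRaqL lay above all 4 without for 1111 genes (28.7%) and below for 54 (1.39%). A gene could enter through the group where it was high. With a mean of at least 4 over both groups in place of either, 2815 genes remained, with a median difference of 1.06, and 52.3% were higher and 2.34% lower.

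Genes were also read in more cells with DRaqL. The median share of cells with reads was 92.3% with DRaqL and 73.5% without, and 834 of the 3871 genes were detectable in every cell with DRaqL against 365 without. By summed counts, in which each gene's reads were pooled over the cells of a group, the median log2 ratio was 0.07, 417 genes (10.8%) were at least 2-fold higher and 250 (6.46%) lower. The deepest cell held 28.7% of the reads of the group without DRaqL and weighs as much in each summed count. Without it the median was 0.09, with 439 genes higher and 257 lower. By mean RPM the median ratio was 0.09, and since counts are scaled to the protein-coding total, these ratios cannot show a shift shared by all genes. With TMM scaling of log2 levels the median difference was 1.34. In cells with reads of the gene, the median difference was 0.34, and 32.6% of genes were lower with DRaqL. Counts of higher and lower members of a list are given below beside 60.8% and 2.22%, and list medians beside 1.31. This background covers genes of all levels and was not matched to the level of a list. Genes with a mean of 8 to 10 in their higher group differed by a median of 0.85, and 44.4% were at least 2-fold higher. At a mean of 10 and above the median was 0.34, and 15.5% were higher.

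Detection followed the same order. Over the 19394 protein-coding genes with reads in any of the 73 cells, the share of cells with reads was at least 25 percentage points higher with DRaqL for 3489 genes (18.0%) and lower for 23 (0.119%). The lower share was 0.1495% to 0.516% with 1 pool left out and 0.619% among neighboring cells. In the thinned libraries 2956 genes (15.2%) were higher and 28 (0.144%) lower.

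The difference of mean levels was largest for genes of low and middle level. Genes with a mean of 4 to 6 in their higher group differed by a median of 1.38 (2367 genes), those at 6 to 8 by 1.46 (1022 genes), those at 8 to 10 by 0.85 (372 genes) and those at 10 and above by 0.34 (110 genes). In the lowest of these classes the median gene was read in 84.6% of cells with DRaqL and in 64.7% without, and in the highest class in every cell of both groups. The other scales had another order, with medians of 0.003, 0.14, 0.24 and 0.17 by summed counts and 0.21, 0.56, 0.62 and 0.34 in cells with reads, from the lowest class to the highest. The classes were set by the higher group, and 1781 of the 3871 genes reached the limit with DRaqL alone, against 95 without DRaqL alone.

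**Figure D2:**
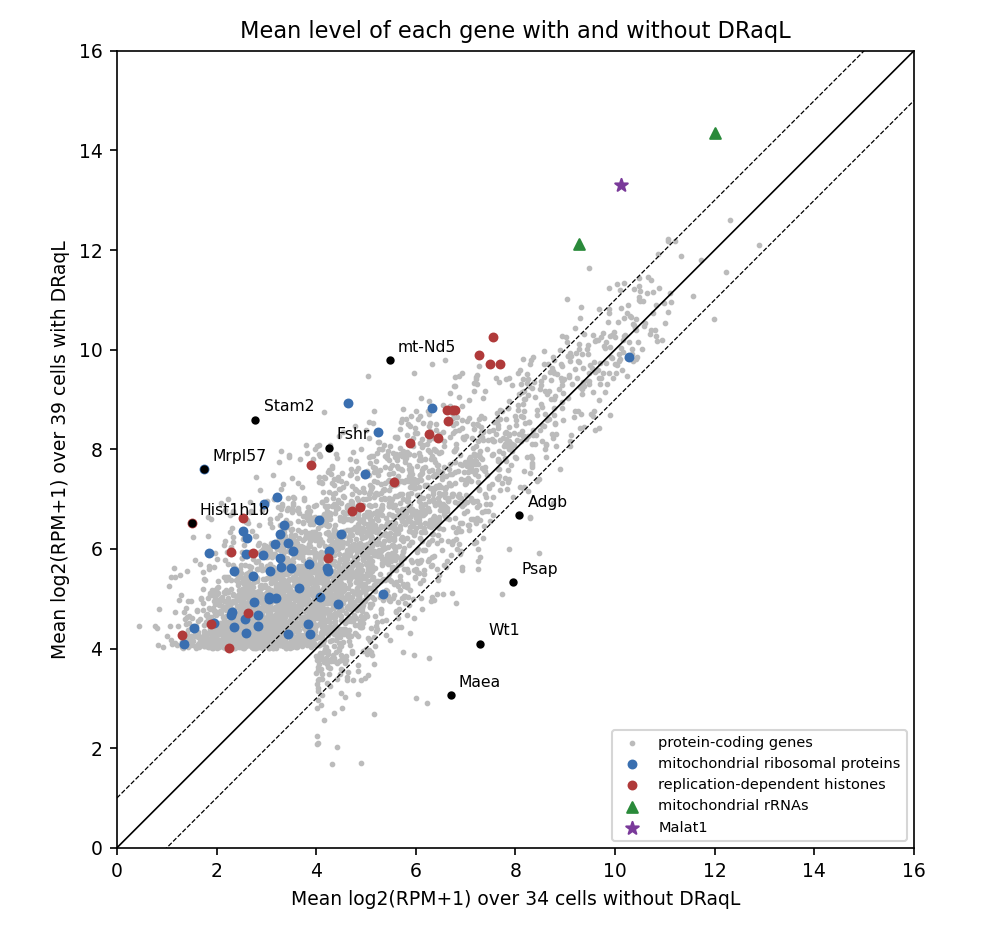
Mean log2 (RPM+1) of each gene without DRaqL (horizontal axis) and with DRaqL (vertical axis) over 34 and 39 cells, for the 3871 protein-coding genes with a mean of at least 4 in either group, with 2 lists in color, named genes in black, and the mitochondrial rRNAs and Malat1 added. The solid line marks equal levels and the dashed lines differences of 1, and 2354 protein-coding genes lie on or above the upper line against 86 on or below the lower line.

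The 12 protein-coding genes with the widest differences in favor of DRaqL and pool means that did not overlap had varied roles. Mrpl57 (chr14:57826234-57829296, GRCm38), which encodes a protein of the large subunit of the mitochondrial ribosome, was at 7.60 ± 1.11 with DRaqL (lowest 4.37, median 7.66, highest 9.45) and 1.76 ± 2.93 without (lowest 0, median 0, highest 8.73). It was read in all 39 cells with DRaqL (95% interval 91% to 100%) and in 32.4% of cells without (17.4% to 50.5%). Pooled over cells it took 246 RPM with DRaqL (exact Poisson 95% interval 240 to 253) and 58.2 without (55.1 to 61.4). Ndufb7, a subunit of complex I of the respiratory chain, was at 8.74 ± 1.96 and 4.16 ± 3.89. mt-Nd4l, a complex I subunit encoded by mitochondrial DNA, was at 6.92 ± 1.40 and 2.10 ± 3.06, but a nuclear copy, Gm10222, carried nearly the same values in both groups (6.90 and 2.12), so that their reads cannot be told apart. No molecular identifiers were used, so the intervals on pooled reads cover the counting of reads, not of molecules, and no spread between cells. Among the cells without DRaqL, 1 cell held 33.2% of the summed RPM of Mrpl57. The intervals on shares treat cells as separate draws and do not describe mice.

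Others of these genes act in membrane traffic, ribosome assembly and chromatin. Stam2, an adaptor that sorts ubiquitinated receptors on endosomes, was at 8.59 ± 1.00 with DRaqL (lowest 5.24, median 8.62, highest 10.59) and 2.78 ± 2.99 without (lowest 0, median 2.18, highest 9.13), and was read in all 39 cells and in 52.9% of cells. Wdr43 and Ddx18, both needed to build ribosomes in the nucleolus, differed by 4.67 and 4.66, and Taf1d, a subunit of the factor that recruits RNA polymerase I, by 4.77. Hist1h1b, a linker histone of dividing cells, was at 6.51 ± 2.68 and 1.50 ± 2.34. The other members of the 12 were Rab11fip2, Bex1, 2810004N23Rik and Gm4076, with differences of 4.80, 4.71, 4.72 and 4.62. By summed counts the log2 ratios of these genes were smaller, at 3.61 for Stam2, 2.08 for Mrpl57, 1.75 for Wdr43 and 1.40 for Ndufb7.

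The 86 genes that were lower with DRaqL became 729, against 744 higher, when differences were taken relative to the median of 1.31. Maea, a subunit of the CTLH ubiquitin ligase, was at 3.07 ± 3.06 with DRaqL (lowest 0, median 2.52, highest 8.24) and 6.70 ± 2.40 without (lowest 0, median 7.54, highest 10.26), and was read in 56.4% of cells (39.6% to 72.2%) and 94.1% (80.3% to 99.3%). Psap, the precursor of the saposins that help break down sphingolipids in lysosomes, was at 5.34 ± 2.14 and 7.95 ± 2.24. Laptm4a, a membrane protein of late endosomes and lysosomes, was at 6.64 ± 1.99 and 8.29 ± 1.64. Tsc22d1, a leucine zipper protein that responds to TGF-beta, was at 5.10 ± 2.77 and 7.72 ± 2.51, with a difference of −4.43 among neighboring cells and −0.72 among non-neighboring cells. Adgb, which encodes androglobin, was lower by 1.40 with narrow spreads, at 6.67 ± 0.42 and 8.07 ± 0.52, and was read in every cell of both groups.

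The share of cells with reads was also lower for a few genes. Slc40a1, the iron exporter ferroportin, was read in 12.8% of cells with DRaqL (4.3% to 27.4%) and 70.6% without (52.5% to 84.9%). Tle2, a corepressor, was read in 4 of 39 and 17 of 34 cells. Gdf9, a growth factor made by oocytes, was read in 10 of 39 and 24 of 34 cells, and Tdrd5, a germ cell protein, in 15 and 27. The summed oocyte genes, given with the markers of other cell types below, differed by position and with the mixed cells.

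**Figure D3:**
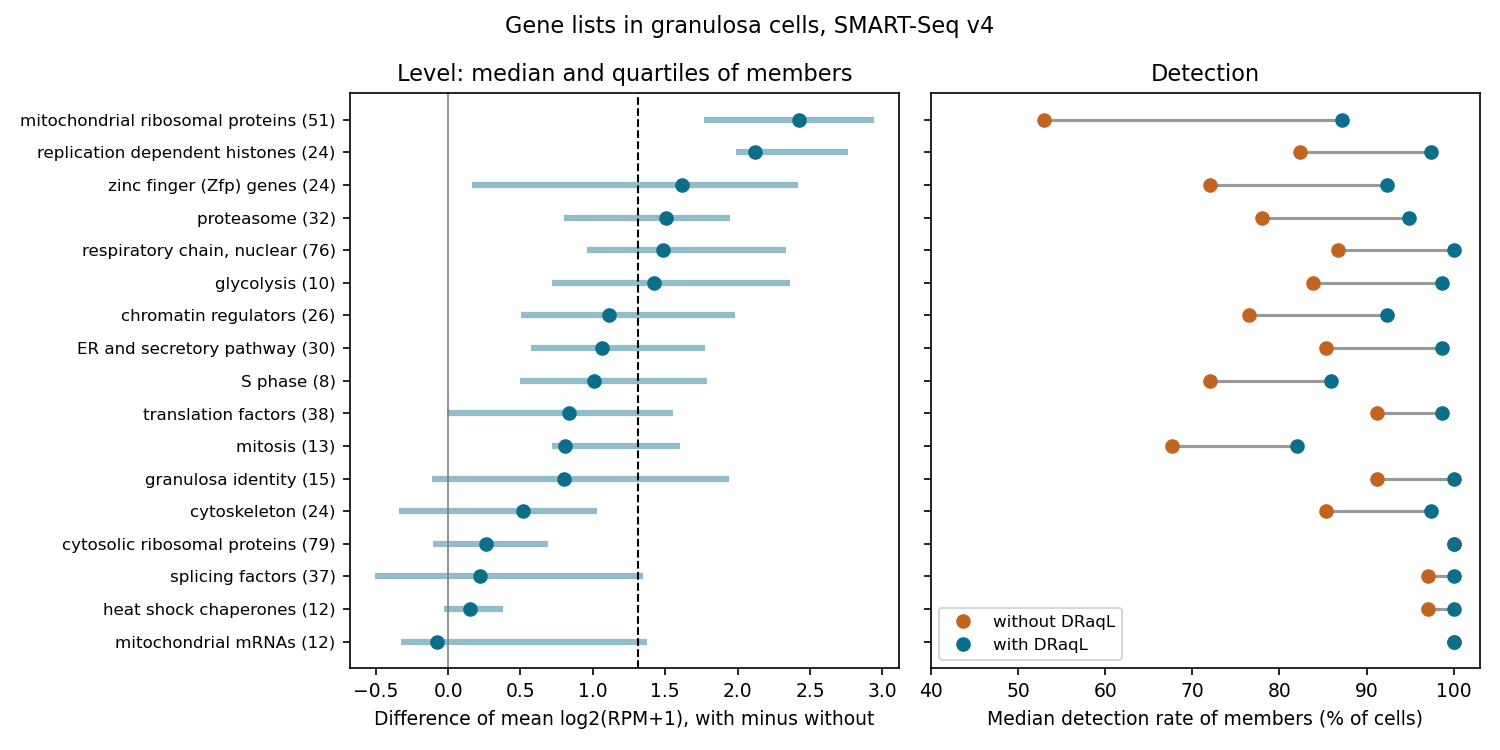
Left, median (point) and quartiles (bar) of the difference of mean log2 (RPM+1), with minus without DRaqL, over the members of each gene list with a mean of at least 4 in either group, whose number is in brackets, with a dashed line at 1.31, the median of all 3871 protein-coding genes; right, median share of cells in which these members were read with and without DRaqL. The mitochondrial ribosome (2.42) and replication-dependent histones (2.12) have the highest medians of the lists drawn, and mitochondrial mRNAs (−0.07) the lowest.

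Mitochondrial ribosomal RNA separated the groups in every cell. The summed level of mt-Rnr1 and mt-Rnr2, the 12S and 16S RNAs, was 14.64 ± 0.40 with DRaqL (lowest 13.97, median 14.71, highest 15.48) and 12.28 ± 0.68 without (lowest 11.19, median 12.26, highest 13.92). All 39 cells with DRaqL lay above all 34 without, and the pool means were 14.55 to 14.76 and 12.08 to 12.67. mt-Rnr2 was at 14.35 ± 0.41 and 12.01 ± 0.72, and mt-Rnr1 at 12.12 ± 0.43 and 9.27 ± 1.51. Together they took 1.80% ± 0.493 of the gene reads with DRaqL and 0.392% ± 0.214 without. The difference of 2.35 in the sum was 2.85 for mt-Rnr1 alone, and the log2 ratio of summed counts was 2.51 for each.

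The mitochondrial mRNAs did not share this difference. Their summed level was 14.37 ± 0.30 with DRaqL and 14.67 ± 0.43 without, a difference of −0.30, and the pool means were 14.24 to 14.42 and 14.59 to 14.82. Of 12 members with a mean of at least 4 in either group (of 13 in the list), 3 were at least 2-fold higher and none was as much lower. The median was −0.07, or −1.39 relative to the median of all genes, beside 0.34 for protein-coding genes with a mean of 10 and above. The 3 were mt-Nd4l, mt-Nd5 and mt-Atp8. mt-Nd5, a core subunit of complex I, was at 9.79 ± 0.55 with DRaqL (lowest 8.39, median 9.84, highest 10.78) and 5.47 ± 3.24 without (lowest 0, median 6.05, highest 10.04). mt-Atp8, a subunit of ATP synthase, was at 8.78 ± 0.91 and 5.17 ± 2.76. mt-Co3, a subunit of cytochrome c oxidase and the most abundant of the list, was at 12.09 ± 0.43 and 12.88 ± 0.54, and mt-Co1 at 11.80 ± 0.41 and 11.73 ± 0.53.

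Nuclear genes for the respiratory chain were near the background or above it. Of the 76 respiratory chain and ATP synthase genes that could be compared (of 80), 55 were at least 2-fold higher and none as much lower, with a median of 1.48 (0.24 by summed counts). For 34 of the 76, all pool means with DRaqL lay above those without, beside 28.7% of all genes. With the mean over both groups as the limit, 52 of 73 were higher with a median of 1.48, beside 52.3% and 1.06 for all genes. The summed level over all members was 15.03 ± 0.31 and 14.58 ± 0.30, or 0.45 higher with DRaqL. Ndufs8, a complex I subunit, differed by 4.28 and Atp5d, a subunit of ATP synthase, by 3.67, while Sdhc and Sdha of complex II differed by −0.43 and −0.29.

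The proteins of the mitochondrial ribosome stood above the background. Of 51 members that could be compared (of 77), 44 were at least 2-fold higher and none as much lower, with a median of 2.42, and the median member was read in 87.2% and 52.9% of cells. With the mean over both groups as the limit, 31 of 37 were higher. Besides Mrpl57, the widest differences were those of Mrps21 (4.29), Mrps16 (4.08) and Mrpl34 (3.95). Mrps28, the most abundant, differed by −0.42, at 9.85 ± 0.46 and 10.27 ± 0.54. The summed level of all members differed less, at 13.15 ± 0.24 and 12.69 ± 0.51, and why it did so was not tested. The list median was 0.48 by summed counts against 0.07 for all genes.

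Replication-dependent histones, which package newly copied DNA, were higher with DRaqL. Of 65 genes, 24 could be compared, and these 24 were all at least 2-fold higher, between 1.58 (Hist3h2a) and 5.01 (Hist1h1b), with a median of 2.12. Members could enter through the group where they were high, as Hist1h1b did with DRaqL, so the count and the median depend in part on that limit. For 9 of the 24, all pool means with DRaqL lay above those without, beside 28.7% of all genes. Of the 24, 8 carried the stem-loop letters shown above in their annotated transcript, with a median difference of 2.04, against 2.43 for the 16 without a match. Hist1h2ag was at 10.25 ± 2.51 with DRaqL (lowest 2.03, median 11.08, highest 12.97) and 7.55 ± 3.89 without (lowest 0, median 8.84, highest 11.93). The 17 H2A copies among them lay between 1.75 and 2.97, but they are nearly identical in sequence and their reads may be split between copies. The 4 linker histones, Hist1h1b, Hist1h1c, Hist1h1d and Hist1h1e, which differ more in sequence, lay between 3.64 and 5.01.

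The histone level varied widely between cells. The summed level was 13.18 ± 1.97 with DRaqL (lowest 4.99, median 13.71, highest 15.59) and 11.08 ± 2.91 without (lowest 5.00, median 11.76, highest 14.65), so that the groups overlapped. The pool means, 11.75 to 14.27 and 9.52 to 12.52, overlapped too. It was 14.07 in neighboring cells with DRaqL and 12.24 in non-neighboring cells, against 11.73 and 10.43 without. By summed counts the 24 genes ranged from −0.42 to 2.81, with 23 above 0 and a median of 0.75. A second list, chosen after seeing the data, held replacement histones, which are mostly made outside S phase from polyadenylated mRNAs. Of its 7 members that could be compared (of 8), none was 2-fold higher or lower, and the median was 0.53. H2afx, which also has a stem-loop form, is among them, and the difference between the lists was not tested. H2afz was at 9.94 ± 1.90 and 9.21 ± 2.08, and H3f3a at 7.86 ± 0.52 and 8.31 ± 1.80.

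**Figure D4:**
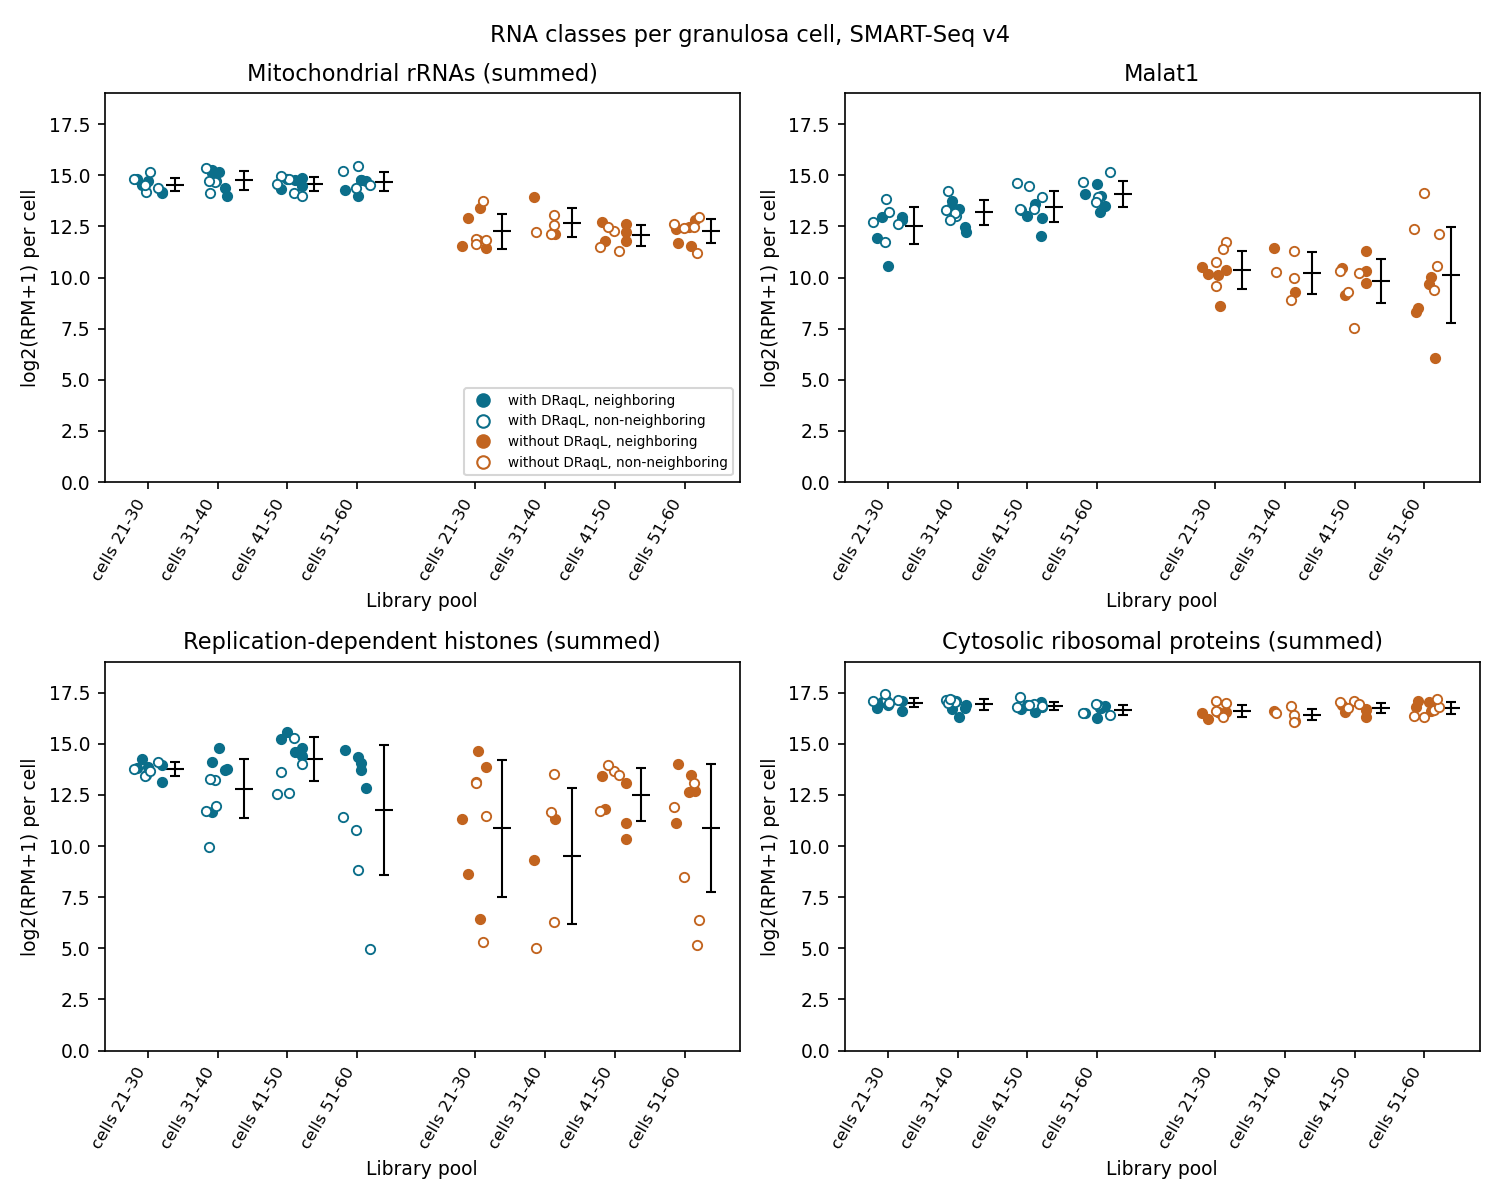
Level in each cell as log2 (RPM+1) (vertical axes) of the summed mitochondrial rRNAs, Malat1, the summed replication-dependent histones and the summed cytosolic ribosomal proteins, by library pool (horizontal axes), with DRaqL and without. Points are cells, filled where neighboring, dashes with bars are pool means and SDs over cells, and the mitochondrial rRNAs are the panel in which the 39 cells with DRaqL and the 34 without do not overlap.

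Nuclear long noncoding RNAs were led by Malat1. Malat1 (chr19:5795690-5802672 on the minus strand, GRCm38) was at 13.30 ± 0.90 with DRaqL (lowest 10.57, median 13.32, highest 15.16) and 10.12 ± 1.48 without (lowest 6.06, median 10.19, highest 14.16). The pool means were 12.54 to 14.09 and 9.82 to 10.37, and 24 of the 34 cells without DRaqL lay below the lowest cell with it. Pooled over cells Malat1 took 11856 RPM (11812 to 11900) and 1773 RPM (1756 to 1790). An oligo(dT) primer can pair with an inner run of A, and the longest run in the annotated transcript is shown in capitals.
Malat1: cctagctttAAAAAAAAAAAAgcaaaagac
It lies 298 bases before the annotated end. The longest run was 7 bases in mt-Rnr2, 41 in Kcnq1ot1, 17 in Xist and 16 in Meg3, and the part of such runs in the differences was not tested.

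The other nuclear RNAs differed in both directions. The summed level of 17 such RNAs with reads differed by 1.99, and by −0.02 without Malat1. Kcnq1ot1, which silences its imprinted neighbors, was at 7.80 ± 2.03 and 3.79 ± 3.44. Meg3, an RNA of another imprinted locus, was at 5.61 ± 2.62 and 7.36 ± 2.76. Xist, which coats the inactive X chromosome, was at 7.79 ± 3.09 and 8.01 ± 3.41, and its difference was −0.63 among neighboring and 0.25 among non-neighboring cells.

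Genes other than protein-coding ones were also more often detectable, 3606 ± 693 per cell with DRaqL and 2539 ± 808 without, with pool means of 3333 to 3829 and 2192 to 2832. The difference of 1067 was 556 when at least 5 reads were asked for. They took 31.7% ± 1.89 of gene reads with DRaqL and 30.0% ± 2.33 without. Of the 1400 with a mean of at least 4 in either group, 544 (38.9%) were at least 2-fold higher and 63 (4.50%) lower, with a median difference of 0.64. Long intergenic noncoding RNAs took 2.86% ± 0.692 and 2.05% ± 0.492 of reads, and processed pseudogenes 16.5% ± 1.94 and 17.2% ± 2.22. Entries for pseudogenes and for small RNAs inside other genes may hold reads of their parent or host, since the strand setting of the counting is not stated.

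Among these genes, pseudogenes held the widest difference in each direction. Gm37713 (chr1:157621272-157621469) was at 3.07 ± 0.88 with DRaqL (lowest 0, median 3.23, highest 5.02) and 7.45 ± 0.99 without (lowest 3.74, median 7.68, highest 8.60), a difference of −4.38 that was as large by summed counts. Gm6407 (chr10:73690257-73690805) was at 5.45 ± 0.78 and 0.28 ± 0.73, with 1170 reads in all 39 cells and 9 reads in 6 of 34 cells, and Gm16433 was higher by 5.33. The 3 were picked for their wide differences, and their pool means did not overlap. The share of all such genes without overlap is not given here. Gm12912 was at 7.34 ± 0.51 and 9.18 ± 0.61.

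Genes of the cytosolic ribosome were near equal. All 79 ribosomal protein genes could be compared, of which 9 were at least 2-fold higher and 1 lower, with a median difference of 0.26 that lay 1.05 below that of all genes. Protein-coding genes of any kind with a mean of 10 and above differed by a median of 0.34, so the list lay near abundant genes. The summed level was 16.87 ± 0.26 with DRaqL and 16.66 ± 0.29 without. Rpl41, the most abundant, was at 12.23 ± 0.37 and 11.07 ± 1.04, Fau, which encodes a ubiquitin-like fusion of Rps30, at 10.63 ± 0.37 and 9.30 ± 1.88, and Rplp1, a stalk protein, at 8.69 ± 0.69 and 9.89 ± 0.70.

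For translation factors, 15 of 38 were at least 2-fold higher and 1 lower, with a median of 0.84 that was −0.12 by summed counts. Tpt1, an abundant mRNA with translational control, was at 10.61 ± 0.57 and 11.99 ± 0.52, and Eif5b, which joins the ribosomal subunits, differed by 2.58. The summed level of the list was 0.41 lower with DRaqL.

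Protein breakdown and secretion followed the background. Of 32 proteasome genes that could be compared (of 39), 20 were at least 2-fold higher and none lower, with a median of 1.50 that was −0.14 by summed counts. Psmd12, a subunit of the lid, differed by 3.59, and Psmb1, a subunit of the core, by −0.09. Of 30 genes of the endoplasmic reticulum and secretion, 18 were higher and none lower, with a median of 1.06 (0.02 by summed counts). Dad1, a subunit of the oligosaccharyltransferase, was at 8.26 ± 1.29 and 4.45 ± 3.76, while Calr, the chaperone calreticulin, differed by −0.03.

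Splicing factors stood below the background of all genes, which was not matched for level. Of 37, 10 were at least 2-fold higher and none lower, with a median of 0.22 that was −0.53 by summed counts. Members differed widely, from 4.04 for Srsf10 and 3.20 for Rbm25 to −0.91 for Srsf7 and −0.82 for Hnrnpa1. Among chromatin regulators 14 of 26 were higher and 1 lower, with a median of 1.11 that was 0.07 by summed counts. Their summed level differed by −0.06. Smc1a, a cohesin subunit, was at 6.83 ± 2.18 and 3.43 ± 3.52, and Ogt, the enzyme that adds O-GlcNAc, at 4.91 ± 2.77 and 6.81 ± 2.48.

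Among metabolic genes, 7 of 10 glycolytic genes that could be compared (of 17) were higher and none lower, with a median of 1.42 (0.16 by summed counts). Eno1, the enolase, was at 7.87 ± 1.05 and 5.13 ± 3.58, and Gapdh at 6.25 ± 0.83 and 5.10 ± 2.58. Heat shock proteins and chaperones had 2 of 12 higher and none lower, with a median of 0.15 (−0.33 by summed counts, −0.14 without the deepest cell). Hspa8, the constitutive Hsc70, was at 10.20 ± 0.40 and 10.93 ± 0.56. For the cytoskeleton, 8 of 24 were higher and 1 lower, with a median of 0.52 (−0.54 by summed counts).

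Genes that define granulosa cells differed in both directions. Of 15 that could be compared (of 20), 6 were at least 2-fold higher and 2 lower, with a median of 0.80 that was −0.04 by summed counts (0.07 without the deepest cell), and the summed level of all 20 was 13.09 ± 0.59 with DRaqL and 12.93 ± 0.56 without. Fshr, the receptor for follicle-stimulating hormone, was at 8.04 ± 1.69 with DRaqL (lowest 2.48, median 8.36, highest 10.50) and 4.25 ± 3.63 without (lowest 0, median 3.61, highest 9.53), and was read in all 39 cells and in 70.6% of cells. Fst, the activin antagonist follistatin, was at 7.82 ± 1.56 and 4.42 ± 3.84. Bmpr1b, a receptor for bone morphogenetic proteins, was at 8.73 ± 1.86 and 6.73 ± 3.09, and Nr5a1, the steroidogenic factor SF-1, at 4.14 ± 3.11 and 1.90 ± 3.31.

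The 2 lower genes are transcription factors. Wt1, which is needed for the fate of gonadal somatic cells, was at 4.10 ± 3.51 with DRaqL (lowest 0, median 3.94, highest 9.71) and 7.28 ± 2.84 without (lowest 0, median 8.16, highest 10.80), and the pool means, 0.77 to 7.79 and 4.95 to 9.15, overlapped. Foxl2 was at 5.58 ± 2.36 and 6.93 ± 3.17. Its median was 6.28 and 8.43, and 1 of 39 cells with DRaqL lay above the median of the cells without. Esr2, the main estrogen receptor of granulosa cells, was at 8.78 ± 1.31 and 8.42 ± 1.31, and Nr5a2, needed for ovulation, at 8.65 ± 1.59 and 9.18 ± 1.78. Gja1, which forms the gap junctions between granulosa cells, was at 10.32 ± 0.85 and 9.38 ± 2.60.

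Genes of the cell cycle were near the background or below it. Of 13 mitosis genes that could be compared (of 20), 6 were higher and none lower, with a median of 0.81 (−0.16 by summed counts, −0.39 without the deepest cell). Of 8 S-phase genes (of 20), 4 were higher and none lower, with a median of 1.01 (−0.13 by summed counts, −0.09 without the deepest cell). Top2a, the topoisomerase of dividing cells, was at 7.98 ± 2.10 and 6.39 ± 3.45, and Hells, a chromatin remodeler, at 7.32 ± 2.41 and 4.12 ± 3.56. The summed S-phase level was 10.40 ± 0.89 with DRaqL and 10.45 ± 0.97 without, and the summed mitosis level 10.33 ± 2.20 and 10.00 ± 2.53. The part of the cell cycle in the histone difference was not tested.

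Markers of other ovarian cells were read in both groups, at levels that varied widely between cells. The summed 14 oocyte genes were at 5.64 ± 3.67 with DRaqL and 6.77 ± 4.17 without, with a median of 25.2 RPM and 50.3 RPM and a highest cell of 3446 RPM and 14383 RPM. Among non-neighboring cells they were lower with DRaqL (2.77 and 5.53). Among neighboring cells the direction turned with the scale, at 8.36 and 8.02 by mean log2 level and 936 RPM and 2396 RPM by mean RPM. Their mean was 494 RPM and 1679 RPM over all cells, and 339 RPM and 356 RPM without the 8 mixed cells. Gdf9, the most abundant, differed by −2.64. The 6 theca and interstitial genes were at 6.08 ± 3.85 and 7.65 ± 3.07, led by Hsd3b1, a steroid dehydrogenase, which differed by −4.53 among neighboring and 0.48 among non-neighboring cells. The direction turned with the scale, since the mean of the theca sum was 966 RPM with DRaqL, where 1 cell reached 18520 RPM, and 585 RPM without. The 6 endothelial genes were at 5.98 ± 1.08 and 5.38 ± 1.98, and the 8 stromal genes at 5.42 ± 3.61 and 4.51 ± 3.89, with a highest cell of 6209 RPM and 5118 RPM. Genes of leukocytes summed to a median of 1.14 RPM with DRaqL and 0 without, those of red blood cells and of the ovarian epithelium to 0 in both groups, and those of stroma to 32.5 RPM and 13.8 RPM. Of these markers and those of endothelium and luteal cells, Cdh5 alone reached a mean of 4. Without the 8 mixed cells the median of the granulosa genes was 0.48 in place of 0.80 and Gdf9 differed by −2.00 in place of −2.64. The part of these cells in the differences above was not tested.

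Levels correlated more closely between cells with DRaqL. Over the genes with a mean of at least 4 in either group, Pearson's r between the levels of 2 cells had a median of 0.344 over the 741 pairs with DRaqL, 0.298 over the 561 pairs without, and 0.277 over the 1326 pairs of 1 cell from each group. Over the 1995 genes with a mean of at least 4 in both groups the medians were 0.442, 0.256 and 0.293. The highest r of any pair was 0.548 over the first set and 0.691 over the second, so that no library stood out as deposited again under another name. Of the same 1995 genes, 1941 (97.3%) had the smaller SD over cells with DRaqL, and the median SD was 1.93 with DRaqL and 3.10 without.

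The difference was wider for genes with short transcripts and varied little with runs of A. Among 3868 of the 3871 genes with a transcript in GENCODE vM21, the fifth with the shortest transcripts, up to 1674 bases, differed by a median of 1.54, and the other bins of length by 1.26 to 1.32. Among genes of like level those with the shortest transcripts stood further apart, at 1.77 against 1.26 to 1.38 for levels of 4 to 6, 1.80 against 1.11 to 1.50 for 6 to 8, and 1.18 against 0.27 to 0.88 for 8 to 10. The fifth with the highest GC content differed by 1.50 and the other bins by 1.24 to 1.32. Genes whose longest run of A was at most 6 bases differed by 1.31 (1882 genes), those with 7 to 9 by 1.38 (1108), those with 10 to 14 by 1.27 (610) and those with 15 or more by 1.25 (268).

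DRaqL was also used for other cells and with another chemistry, whose values are set side by side without a test. By Smart-seq2 the methods differed in more than the lysis, since DRaqL also came with SuperScript III and another PCR enzyme. Granulosa cells by Smart-seq2 were 34 with DRaqL and 37 by LCM-seq, which lyses in Triton X-100. Their median difference was 0.33, and 19.2% of genes were at least 2-fold higher and 2.35% lower. After thinning to 71425 reads, 6963 ± 890 and 6447 ± 902 genes were detectable in them. For oocytes by SMART-Seq v4 (15 with and 18 without), the median was −0.11, and 8.35% of genes were higher and 10.6% lower. After thinning to 133799 reads, 9628 ± 1117 and 9903 ± 886 genes were detectable in these oocytes.

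The classes differed in how far they recurred. The mitochondrial rRNA sum differed by 2.35 in granulosa cells by SMART-Seq v4, 1.70 by Smart-seq2 and 2.33 in oocytes. Malat1 differed by 3.18, 0.97 and 3.03 in the same order, Hist1h1e by 3.80, 4.74 and 3.67, and the summed histones by 2.10, 0.78 and 0.94. The proteins of the mitochondrial ribosome differed by 0.46, −0.04 and −0.12 in their sum, the respiratory chain by 0.45, 0.03 and −0.38, and Mrpl57 by 5.84, 1.06 and 0.72. The summed genes that define granulosa cells differed by 0.16 in granulosa cells by SMART-Seq v4 and −0.28 by Smart-seq2. By Smart-seq2, 1 of the 17 that could be compared was higher and 2 were lower, with a median of −0.07. Fshr among them differed by 3.79 by SMART-Seq v4 and 0.99 by Smart-seq2. Of the lower genes, Adgb differed by −1.40, −1.18 and −1.54, Maea by −3.63, −0.25 and −0.62, and Gm37713 by −4.38, −0.02 and −5.42. Whether a class differed more in 1 of these settings was not tested, and the oocytes, the cells by Smart-seq2 and the granulosa cells by SMART-Seq v4 were amplified and pooled apart.

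**Figure D5:**
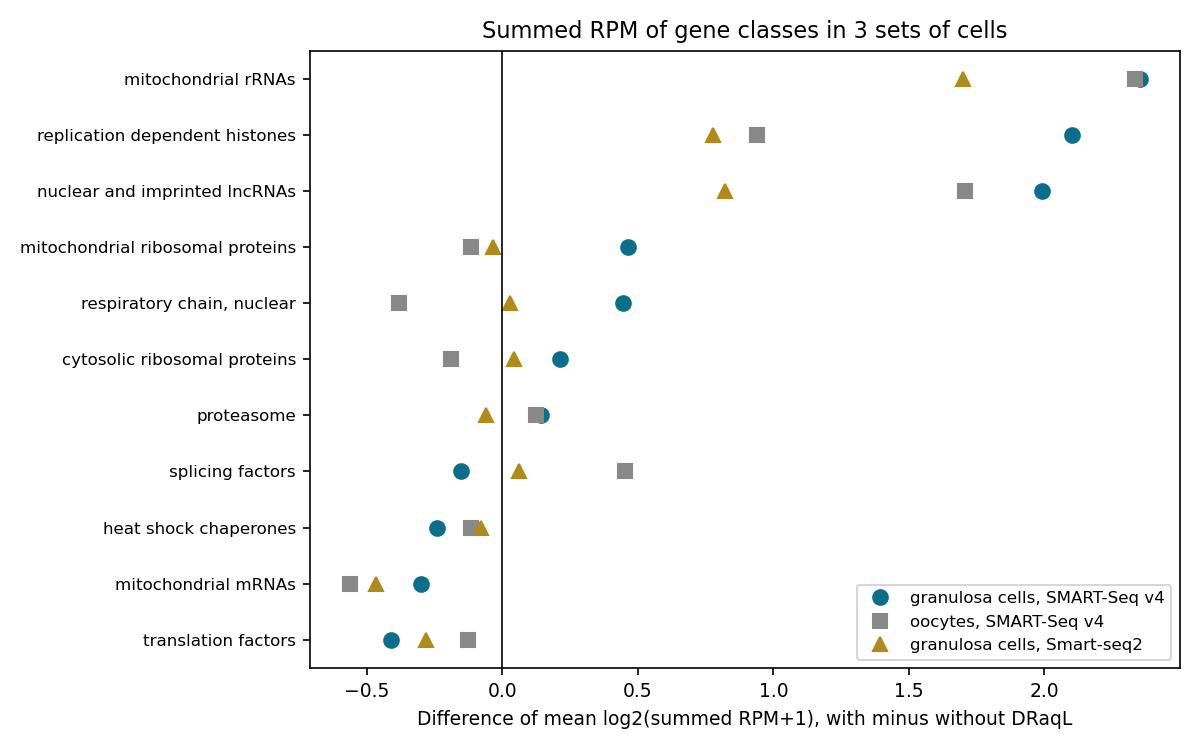
Difference of the summed level of each gene class, log2 (RPM+1) with minus without DRaqL, in granulosa cells by SMART-Seq v4 (39 and 34 cells), granulosa cells by Smart-seq2 (34 and 37) and oocytes by SMART-Seq v4 (15 and 18). Points are differences of means, and the mitochondrial rRNA lies between 1.70 and 2.35 in all 3.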

How the data were processed

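The authors trimmed reads with fastp 0.20.0 and cutadapt 1.16, aligned them to GRCm38 with HISAT2 2.1.0 and counted those within 10 kb of annotated 3′ ends with HTSeq 0.10.0, as listed in the submitters' processing notes and the methods. The authors deposited whole-number counts per gene and per ERCC RNA without normalization, for 106 libraries and 45905 genes, of which 22060 are protein-coding. No column was left without a sample. Strand setting and ERCC amount without DRaqL are not given in the sources used here.

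Counts were divided by the total over protein-coding genes (155613 to 6749468 per cell) and used as log2 (RPM+1) with a pseudocount of 1. Level comparisons took genes with a mean of at least 4 in either group, and calls were differences of 1 or more, or of 25 percentage points of cells. Libraries were thinned with the seed 20230918. Because the labels name no mouse, each group was 1 sample and nothing was tested, although the study's design would have used cells. Counting intervals are exact Poisson and Clopper-Pearson at 95%. TMM factors came from edgeR 4.0.16 in R 4.3.3, and other steps used python 3.11.15, numpy 2.4.6, pandas 2.3.3 and scipy 1.17.1. The formulas for mean levels and summed counts were tested on simulated Poisson counts with genes changed by known folds. These counts varied between cells by depth and counting alone, so the test does not cover the scattered zeros of the data.

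Genes to name were drawn from sets fixed by rule: the 12 widest differences in each direction among genes with non-overlapping pool means, the 8 widest in detection and the 8 widest among other genes in each direction, and, in each list, the most abundant members and the widest differences. All 12 higher genes are named above, but only some of the 12 lower genes and of the other sets, without a further rule. The members and the 34 lists were chosen with earlier results of these data known. The list of polyadenylated histones, the limit on the mean over both groups, the centring, the differences in cells with reads, the runs of A, the correlation over genes at the limit in both groups, the summed counts without the deepest cell and the exclusion of mixed cells were added after seeing the data. Alternatives were the threshold of detection, pseudocount, filter, scaling, thinning, position, each pool left out in turn and each list without its most abundant member.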

Additional observations from a re-analysis of the deposited data

How the results depend on the processing

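No paired analysis was possible because the numbers of pools and indices that the groups share tie no cell to another and nothing was tested. Of the alternatives to the class sums, 566 moved them by less than the spread of pool means, 11 by more and 1 turned the direction of a difference that exceeded that spread. In 40 of them, over 15 of 34 classes, the sign was the other one, and in 39 of these the reported difference lay within that spread. Of those to the other results, 121 left the value near and 28 moved it. The difference in other detectable genes was 556 at 5 or more reads and 719 after thinning. The 2354 genes at least 2-fold higher became 1274 with a pseudocount of 10, 417 by summed counts, 488 by mean RPM, 4781 without a filter, 828 at a mean of at least 6 and 744 after centring on the median difference. The 86 lower genes became 250, 290, 210, 40 and 729 by summed counts, mean RPM, no filter, a mean of at least 6 and centring, and 154 in neighboring and 178 in non-neighboring cells. Genes with lower detection, 0.119% of the protein-coding genes with reads, became 0.619% in neighboring cells, 0.521% in non-neighboring cells and 0.201% without mixed cells. The mitochondrial rRNA sum differed by 2.85 without its most abundant member and the nuclear RNA sum by −0.019 without Malat1. The difference of 0.046 between median correlations was 0.099 with Spearman's rho, 0.136 over all detected genes and 0.185 over genes at the limit in both groups. Why these values moved was not tested, except that position and pool subsets hold fewer cells.

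Leaving out 1 pool at a time gave differences of 2195 to 2561 detectable protein-coding genes and 989 to 1172 other genes, 2190 to 2503 higher and 79 to 148 lower genes, 16.5% to 21.2% of genes with higher and 0.1495% to 0.516% with lower detection, 2.28 to 2.44 for mitochondrial rRNA, 1.78 to 2.22 for nuclear RNAs, 1.73 to 2.62 for histones, 1.42 to 2.41 percentage points for the share of other genes, 0.029 to 0.054 for the correlation and −1.27 to −1.08 for the SD. The highest values for lower genes, 148 by level and 0.516% by detection, came without 1 pool of 10 cells without DRaqL. Depth limits the low genes: the shallowest cell held 155613 reads, and a gene without reads in a cell is not shown to be absent.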

Other observations

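The remaining lists had medians on both sides of that of all genes, 1.31. The zinc finger genes, taken by their Zfp symbols, had 16 of 24 members that could be compared at least 2-fold higher with DRaqL and 2 lower, with a median of 1.62. Their summed level over all 359 genes was 12.79 ± 0.29 with DRaqL (SD, n = 39 cells) and 13.08 ± 0.32 without (n = 34). Genes of cholesterol synthesis summed to 9.04 ± 0.89 and 9.42 ± 1.11, those of the extracellular matrix to 10.25 ± 0.88 and 10.68 ± 1.08, and immediate early genes to 6.93 ± 1.73 and 6.97 ± 2.85. In each of these 3 lists 5 or fewer members reached a mean of 4. Host genes of small nucleolar RNAs summed to 9.94 ± 0.52 and 9.92 ± 0.81, and pseudogenes of ribosomal proteins took 66153 ± 12291 RPM with DRaqL and 67070 ± 13471 RPM without. Olfactory receptors, which ovarian cells are not known for, summed to 8.71 ± 0.73 and 8.67 ± 0.66, and 506 of the 1088 had no reads in any cell.

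The deepest cell without DRaqL had 12819 detectable protein-coding genes, more than any cell with DRaqL, and kept 9194 after thinning, against a highest value of 8581 with DRaqL. Its 14 oocyte genes summed to 44.2 RPM and its Inha level was 11.50. Without the deepest cell of each group the difference in detectable genes was 2477.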
